A study of Mus musculus with 13 samples.

Results

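The stromal, endothelial and leukocyte markers described here are 11 human transcripts of 10 genes, out of 244939 transcripts quantified in each of 13 mammary tumours. They were chosen by transcript ID from a list that pairs each ID with a gene symbol: COL1A1, COL1A2, COL3A1, DCN, LUM, SPARC, VWF, KDR and PTPRC with 1 ID each, and CSF1R with 2. The tumours grew from MDA-MB-231, a human cell line established from triple-negative breast cancer, after injection with Matrigel into mammary gland 4 of female NSG mice aged 12 to 13 weeks. The vehicle group (7 libraries) received 40% DMSO with 60% polyethylene glycol by gavage each day. The OCA group (6 libraries) received, in that same mixture, 30 mg per kg of OCA, which is obeticholic acid, an agonist of the bile acid receptor FXR. Treatment began at tumour volumes in a set range, and growth lasted 14 days per the series text. NSG mice lack mature lymphocytes and natural killer cells but keep myeloid cells, although the labels call them immunocompetent. All tumour cells are of a single line, so a difference between groups is a difference for that line in this host.

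A xenograft tumour is a mixture of species. The cancer cells are human, while fibroblasts, blood vessels and white blood cells come from the mouse. Fibroblasts secrete the fibrillar collagens and the small proteoglycans decorin and lumican, endothelial cells line the vessels, and macrophages are a common white cell of solid tumours. All 244939 transcripts in the files have human IDs and 0 have other IDs, so any mouse read that was counted was assigned to a human sequence. The species from which a read came cannot be told apart in these files. The gene level is also limited, because each gene is represented by only its listed transcript, or for CSF1R by the listed pair. Any other transcripts of these genes were not analysed here. In bulk tumours, fewer cells of a type and less RNA per cell cannot be told apart either. Whether the tumour cells carry the defining markers of their line was not analysed here, since the files do not pair IDs with gene names.

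The libraries held 34015674 to 50596490 estimated reads, with 34015674 to 49844746 in vehicle and 44150968 to 50596490 in OCA tumours. Vehicle replicates 1 and 4 and OCA replicate 2 stood apart from the other 10 libraries on the first principal component of all tested transcripts, with scores of 216 to 231 against -126 to -21.3. This component held 14.4% of the variance. The same 3 libraries had the most estimated reads, 49764198 to 50596490 against 34015674 to 48186645 in the other 10. Label numbers fall into 2 series, 4340 to 4351 (3 vehicle, 4 OCA) and 4371 to 4385 (4 vehicle, 2 OCA), which were treated as a possible batch (their meaning is not stated in the labels). Both splits touch results below and are given beside them.

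The marker transcripts made up a small part of each library, and collagens made up nearly all of that part. Together the 11 transcripts took 0.0322% to 0.0594% of the reads in vehicle tumours (median 0.0440%, n = 7) and 0.0119% to 0.0518% in OCA tumours (median 0.0407%, n = 6). In TPM, the share of each transcript among all transcripts after division by length, their sum was 80.4 ± 16.8 in vehicle (SD, n = 7) and 68.8 ± 26.6 in OCA tumours (SD, n = 6). COL1A1, COL1A2 and COL3A1 held 92.9% to 99.1% of this summed TPM in the 13 libraries. The other 8 transcripts summed to 0.905 to 4.78 TPM. The lowest sum of all 11 was 21.6 TPM in OCA replicate 2, and the next lowest was 56.6 TPM in OCA replicate 5.

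**Figure D1:**
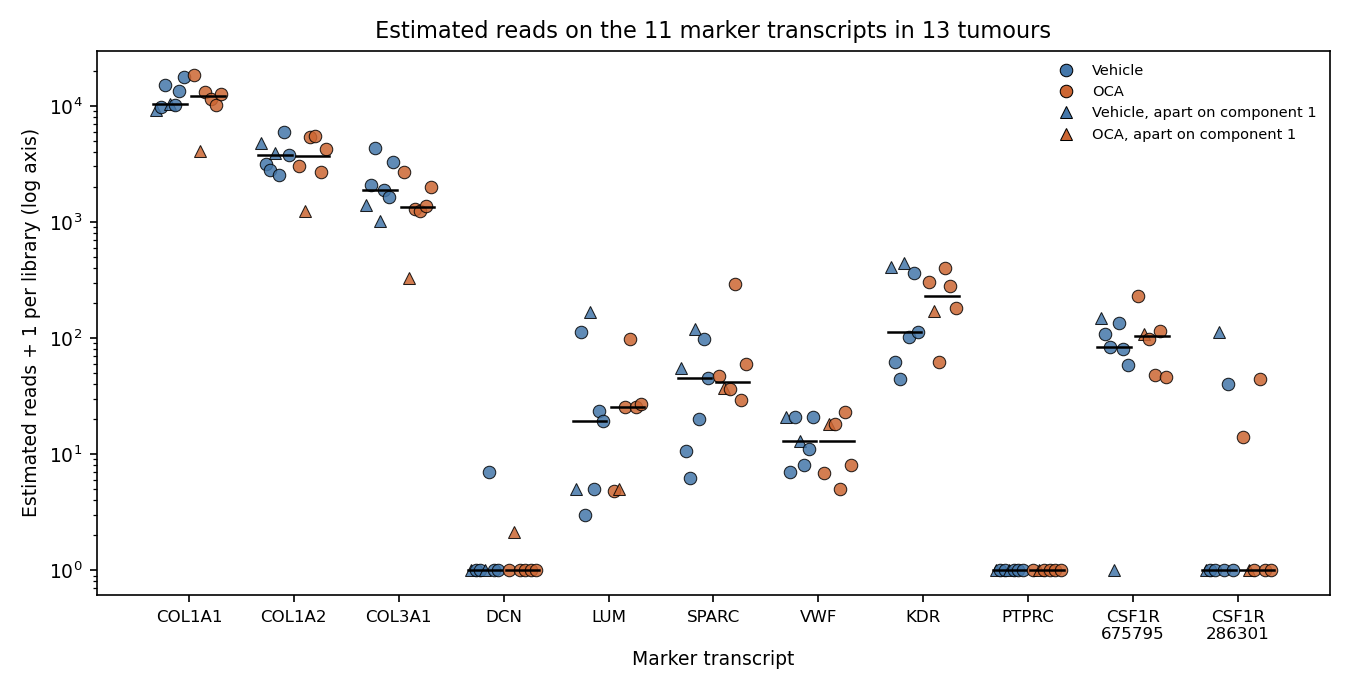
Estimated reads plus 1 on each of the 11 marker transcripts, on a log axis, for vehicle (blue, n = 7) and OCA (orange, n = 6) tumours; each point is a library, each black line a group median, and triangles are the 3 libraries apart on the first principal component. The 3 collagens lie at or above 330 reads in every library, PTPRC lies at 0 in all 13, and the vehicle and OCA points overlap for every transcript with reads in most libraries.

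By mean TPM over the 13 libraries the order was COL1A1 (47.3), COL1A2 (17.2), COL3A1 (8.26), KDR (0.851), CSF1R with both transcripts summed (0.692), SPARC (0.427), LUM (0.360), VWF (0.0328), DCN (0.00220) and PTPRC (0). COL1A1 exceeded COL1A2 in 13 of 13 libraries, COL1A2 exceeded COL3A1 in 12, and COL3A1 exceeded KDR in 13. Below that the neighbours changed places: KDR was above CSF1R in 8 libraries and below it in 5, and CSF1R over SPARC, SPARC over LUM and LUM over VWF each held in 10 of 13. Neighbours in this part of the order therefore had no fixed place between tumours, and markers further apart in it were not compared. Among the 163277 transcripts with a mean TPM above 0, COL1A1 stood at percentile 98.4, COL1A2 at 95.5 and COL3A1 at 91.6. KDR stood at percentile 68.1, SPARC at 58.3, LUM at 55.9, VWF at 23.9 and DCN at 2.70.

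No marker transcript passed the test between OCA and vehicle tumours. Of the 11, 8 passed the low-count filter and were tested with all other transcripts by edgeR's quasi-likelihood test. DCN, PTPRC and the CSF1R transcript ENST00000286301 had too few reads to be tested. Of those 8, 0 had an adjusted p under 0.05, beside 0% of all 74973 transcripts tested, and 0 had an unadjusted p under 0.05, beside 2.77% of all. DESeq2 gave 0 of 10 and limma-voom 0 of 8 members at either threshold, although DESeq2, run without the low-count filter, called 0.396% of the transcripts to which it gave an adjusted p. The smallest unadjusted p of a member was 0.122 by edgeR, that of COL3A1. Log2 fold changes were below 0 for 5 of the 8 and above 0 for 3, against 49% and 51% of all tested transcripts, and their median was -0.20, against 0.0077 for all. None of the 8 had groups without overlap in CPM (reads scaled to library size), beside 0.123% of all tested transcripts.

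**Figure D2:**
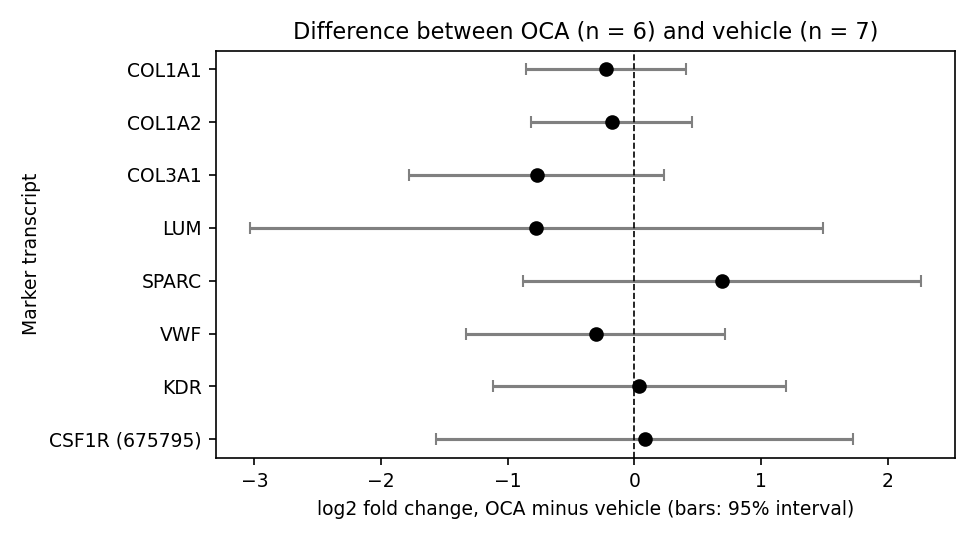
Log2 fold change of OCA over vehicle for the 8 tested marker transcripts (points) with 95% intervals from edgeR's quasi-likelihood fit (bars; 7 vehicle and 6 OCA tumours). Every interval spans 0, from the narrowest for COL1A1 (-0.86 to 0.41) to the widest for LUM (-3.04 to 1.49).

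COL1A1 (ENST00000225964.10, 5914 bases) encodes the alpha-1 chain of type I collagen, the main fibre of connective tissue. It measured 32.4 to 67.4 TPM in vehicle tumours (median 50.03, n = 7) and 14.0 to 69.5 TPM in OCA tumours (median 46.3, n = 6), from 4091 to 18227 reads per library. The groups overlapped over nearly their whole range, and only OCA replicate 2, at 14.0 TPM, lay below every vehicle tumour. For COL1A1 the log2 fold change was -0.22 (SE 0.29, 95% interval -0.86 to 0.41, edgeR adjusted p = 1). With each library left out in turn it ranged from -0.40 (without OCA replicate 1) to -0.03 (without OCA replicate 2). Within the lower label series mean COL1A1 was 49.9 TPM in OCA and 51.3 in vehicle tumours, and within the upper series, which holds OCA replicate 2, it was 32.3 and 49.0.

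COL1A2 (ENST00000297268.11, 5072 bases) encodes the alpha-2 chain, which joins the alpha-1 chains in the type I triple helix. It measured 14.5 to 25.7 TPM in vehicle tumours (median 16.7, n = 7) and 4.98 to 24.0 TPM in OCA tumours (median 16.8, n = 6). The medians were close, and OCA replicate 2 was again the lowest, followed by OCA replicate 5 at 11.5 TPM. The log2 fold change was -0.18 (SE 0.29, 95% interval -0.82 to 0.46, edgeR adjusted p = 1) and turned to 0.012 without OCA replicate 2. OCA over vehicle, by mean TPM, was 0.930 in the lower and 0.749 in the upper label series.

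COL3A1 (ENST00000304636.9, 5490 bases) encodes type III collagen, which forms fine fibres beside type I and is abundant in vessel walls and young scar. Of the 3 collagens it had the lowest OCA mean relative to vehicle (0.602), and measured 3.87 to 20.8 TPM in vehicle tumours (median 10.0, n = 7) and 1.22 to 11.1 TPM in OCA tumours (median 5.39, n = 6). The highest value, 20.8 TPM, was that of vehicle replicate 3, and the lowest, 1.22 TPM, that of OCA replicate 2. The log2 fold change of -0.77 (SE 0.47) did not pass the threshold (95% interval -1.78 to 0.24, edgeR adjusted p = 1). With each library left out in turn it ranged from -1.04 (without OCA replicate 1) to -0.48 (without vehicle replicate 3), and none of these fits passed the threshold. OCA over vehicle by mean TPM was 0.838 in the lower and 0.416 in the upper label series. COL3A1 reads were whole numbers (within 0.0005) in 10 of 13 libraries, so in those libraries few or none of its reads were split with other transcripts. COL1A1 reads were whole in 0 of 13.

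The 3 collagens varied more between tumours of a group than other transcripts of like abundance. The SD within groups of log2(CPM + 0.5) was 0.61 for COL1A1, against a median of 0.20 over the 947 tested transcripts with a mean CPM within 2-fold of its own, and 98.8% of those had a smaller SD. For COL1A2 the SD was also 0.61, above 97.6% of 3823 such transcripts, and for COL3A1 it was 0.95, above 98.4% of 6344. The highest library exceeded the lowest 4.98-fold for COL1A1, 5.16-fold for COL1A2 and 17.1-fold for COL3A1 in TPM. For all 3 the lowest was OCA replicate 2, at 14.0, 4.98 and 1.22 TPM, and the next lowest held 32.4, 11.5 and 3.87 TPM. The SDs include that library and were not computed without it. KDR (SD 0.95, above 82.3% of transcripts of like level), SPARC (0.91, 78.2%), LUM (1.05, 91.6%) and the CSF1R transcript ENST00000675795 (0.91, 76.6%) also lay above the median, while VWF (0.26, 14.5%) lay below it. These shares are a description and were not tested.

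Low COL1A1 went with the libraries that stand apart. In vehicle replicates 1 and 4 and OCA replicate 2 COL1A1 was 14.0 to 36.5 TPM, and in the other 10 it was 37.5 to 69.5 TPM. The means of COL1A1 were 27.6 TPM in the 3 and 53.2 TPM in the 10. COL3A1 had means of 3.47 and 9.70 TPM, with some overlap (1.22 to 5.31 against 4.92 to 20.8). COL1A2 overlapped widely, at 4.98 to 19.8 against 11.5 to 25.7 TPM, and KDR had the higher mean in the 3, at 1.21 against 0.745 TPM. The 3 libraries were set apart by the expression of all tested transcripts, markers included, so this was not tested. They were also the 3 libraries with the most estimated reads, and the part of read depth in these values was not tested. Without these 3 libraries the log2 fold changes of OCA over vehicle were -0.21 for COL1A1, 0.0042 for COL1A2, -0.85 for COL3A1, 1.26 for SPARC and 0.69 for KDR. None of them passed the threshold (edgeR, each adjusted p = 1). This fit was added after seeing the data. In it the unadjusted edgeR p of COL3A1 was 0.0278, against 0.122 in all 13 libraries. The share of all transcripts with so small a p in this fit was not computed.

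COL1A1 and COL3A1 rose and fell together from tumour to tumour. Over 13 libraries their log2(CPM + 0.5) values had a Pearson r of 0.92 (permutation p = 3e-05, adjusted p = 0.00015 over the 5 pairs that could be computed) and a Spearman rho of 0.84 (permutation p = 0.00055, adjusted p = 0.00275). Without the 2 libraries farthest from the median of COL1A1 the r was 0.85 (permutation p = 0.00088). It was 0.93 within the lower label series (n = 7, permutation p = 0.00437), 0.99 within the upper (n = 6, permutation p = 0.00565), 0.88 within vehicle tumours (n = 7, permutation p = 0.0118, adjusted p = 0.0592) and 0.98 within OCA tumours (n = 6, permutation p = 0.00551). Without the 3 libraries apart on the first component it was 0.81 (permutation p = 0.00467). In these smaller sets rho was 0.76 to 0.86, and its permutation p, adjusted over the pairs, missed the threshold without the 3 libraries (adjusted p = 0.0773), within the lower and upper series (0.0942 and 0.293) and within vehicle and OCA tumours (0.176 and 0.290).

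For the pair of type I chains no such relation passed the test. COL1A1 and COL1A2 had an r of 0.64 (permutation p = 0.0528, adjusted p = 0.132) and a rho of 0.038 (permutation p = 0.905, adjusted p = 0.905). Without the 2 libraries farthest from the median the r was -0.08 (permutation p = 0.816), so the pooled value rests on them, and without OCA replicate 2 alone it was -0.13. Within vehicle tumours r was -0.24 (n = 7, permutation p = 0.626), within OCA tumours 0.80 (n = 6, permutation p = 0.0987), within the lower label series 0.027 (n = 7, permutation p = 0.950) and within the upper 0.80 (n = 6, permutation p = 0.150). The ratio of COL1A1 to COL1A2 in TPM ranged from 1.64 in vehicle replicate 1 to 5.08 in OCA replicate 1, with means of 2.94 ± 1.12 in vehicle (SD, n = 7) and 2.93 ± 1.18 in OCA tumours (SD, n = 6). The ratio of COL3A1 to COL1A1 was 0.106 to 0.311 in vehicle and 0.0872 to 0.168 in OCA tumours. Whether the r of COL1A1 with COL3A1 differs from its r with COL1A2 was not tested.

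**Figure D3:**
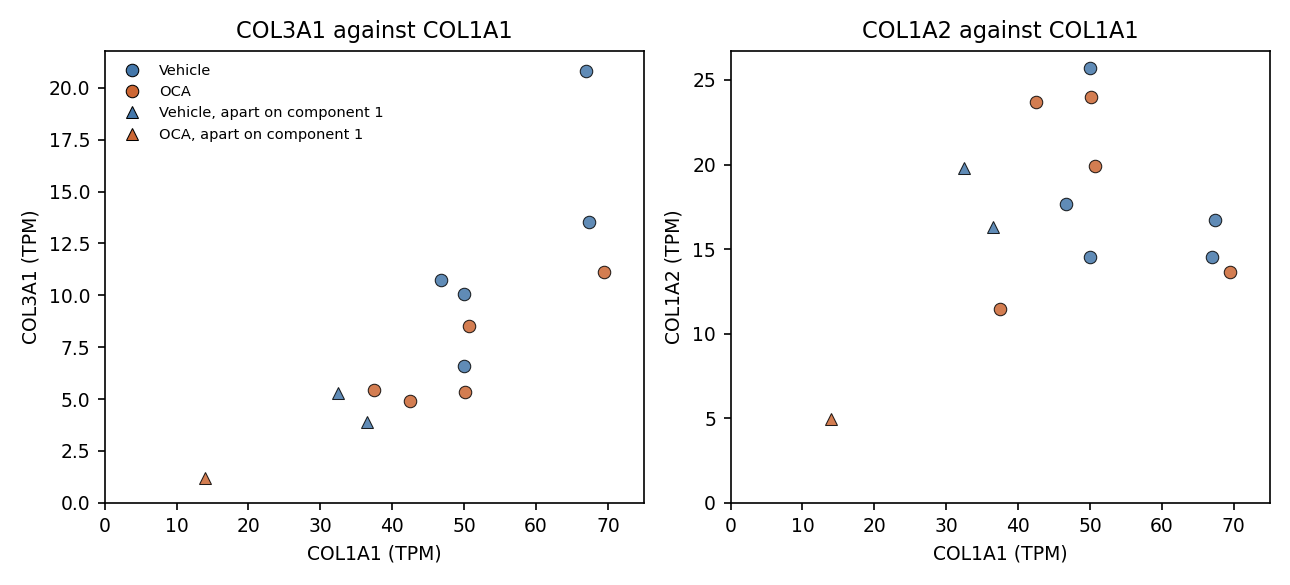
COL3A1 (left) and COL1A2 (right) against COL1A1, all in TPM, with each point a tumour (blue vehicle, orange OCA, triangles the 3 libraries apart on the first principal component). COL3A1 climbs with COL1A1 across both groups (r = 0.92 on the log2 CPM scale), while COL1A2 shows no such trend once OCA replicate 2, at the lower left, is set aside (r = -0.13).

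The transcript outside the markers whose log2(CPM + 0.5) was most like that of COL1A1, among the 46904 that reached a mean of 1 CPM, was ENST00000374866.9. Its r with COL1A1 was 0.977 over 13 libraries, and its means were 17.8 CPM in vehicle and 15.9 CPM in OCA tumours. For KDR, the highest of the endothelial and leukocyte transcripts, the most similar was ENST00000311044.8, with r = 0.959 and means of 2.19 CPM in vehicle and 2.46 CPM in OCA tumours. Both were picked as the highest of many, and their genes are not named in the files.

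The proteoglycans and SPARC were low and uneven. DCN (ENST00000052754.10, 6850 bases) encodes decorin, a small proteoglycan that binds collagen fibrils and is a common marker of fibroblasts. Its listed transcript had 0 reads in 11 of 13 libraries, 6 reads in vehicle replicate 5 and 1.15 in OCA replicate 2. LUM (ENST00000266718.5, 2671 bases) encodes lumican, a related proteoglycan of the collagen matrix. It measured 0.0208 to 1.38 TPM in vehicle tumours (median 0.162, n = 7) and 0.0319 to 0.839 TPM in OCA tumours (median 0.216, n = 6), from 2 to 168 reads. The high values came from 3 tumours, vehicle replicates 2 and 4 at 1.26 and 1.38 TPM and OCA replicate 4 at 0.839 TPM, and the other 10 lay at or below 0.242 TPM. For LUM the log2 fold change was -0.77 (SE 1.05, 95% interval -3.04 to 1.49, edgeR adjusted p = 1), and it moved to -0.14 without vehicle replicate 4 and to -1.60 without OCA replicate 4. DCN and LUM had an r of -0.27 (permutation p = 0.390, adjusted p = 0.488) and a rho of -0.38 (permutation p = 0.217, adjusted p = 0.362), which rest on the 2 libraries with any DCN read: without them DCN is constant and r has no value.

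SPARC (ENST00000231061.9, 3451 bases) encodes osteonectin, a secreted glycoprotein that binds collagen and calcium and is made by fibroblasts, endothelium and some tumour cells. It measured 0.0413 to 0.730 TPM in vehicle tumours (median 0.299, n = 7) and 0.182 to 1.90 TPM in OCA tumours (median 0.274, n = 6). SPARC reads were whole numbers in 0 of 13 libraries (LUM reads in 6), so in every library SPARC reads were divided with other transcripts. The OCA mean rested on replicate 4, at 1.90 TPM, since the other 5 OCA tumours reached at most 0.415 TPM. The log2 fold change was 0.69 (SE 0.73, 95% interval -0.88 to 2.27, edgeR adjusted p = 1) and turned to -0.31 without that library. No relation of SPARC with COL1A1 passed the test (r = -0.09, permutation p = 0.746, adjusted p = 0.746; rho = -0.18, permutation p = 0.552, adjusted p = 0.690), and without the 2 farthest libraries r was -0.39 (permutation p = 0.237). Within the lower and upper label series r was -0.29 and -0.37.

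The endothelial markers differed in level. KDR (ENST00000263923.5, 5833 bases) encodes VEGF receptor 2, the main receptor through which VEGF acts on endothelium. It measured 0.196 to 1.59 TPM in vehicle tumours (median 0.502, n = 7) and 0.235 to 1.502 TPM in OCA tumours (median 0.882, n = 6), from 43.6 to 445 reads. Vehicle replicates 1, 4 and 6 were high, at 1.36 to 1.59 TPM, and the other 4 vehicle tumours lay at or below 0.502 TPM. OCA tumours lay in both of these ranges and between them. The log2 fold change was 0.039 (SE 0.54, 95% interval -1.12 to 1.19, edgeR adjusted p = 1). In a fit that adds the label series it was -0.10, so no direction can be given for KDR.

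VWF (ENST00000261405.10, 8830 bases) encodes von Willebrand factor, the clotting protein stored by endothelial cells. It measured 0.0190 to 0.0586 TPM in vehicle tumours (median 0.0278, n = 7) and 0.00975 to 0.0531 TPM in OCA tumours (median 0.0283, n = 6). That is 4 to 22 reads per library, with a mean of 12.9, the lowest of any tested marker. The log2 fold change was -0.30 (SE 0.47, 95% interval -1.33 to 0.72, edgeR adjusted p = 1). No relation of VWF with KDR passed the test (r = -0.39, permutation p = 0.182, adjusted p = 0.303; rho = -0.38, permutation p = 0.203, adjusted p = 0.362), with r at -0.31 without the 2 farthest libraries, -0.61 within the lower and -0.09 within the upper label series.

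Among the leukocyte markers, PTPRC (ENST00000442510.8, 5357 bases) encodes CD45, the phosphatase carried by nearly all white blood cells. Its listed transcript had 0 reads in all 13 libraries. A count of 0 allows up to 3 reads per library, or 0.0114 to 0.0163 TPM, a limit that covers counting error only. PTPRC could not be paired with CSF1R across libraries, since it did not vary.

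CSF1R encodes the receptor for CSF1, on which macrophages depend. Its transcripts, ENST00000675795 of 3820 bases and ENST00000286301 of 3989 bases, had reads divided unevenly between them from library to library. Their sum was not a whole number in any of the 13 libraries, so reads were also divided with transcripts outside the pair. ENST00000286301 held 100% of the pair's reads in vehicle replicate 4, 47.9% in OCA replicate 4, 33.3% in vehicle replicate 6, 5.33% in OCA replicate 1 and 0% in the other 9. In vehicle tumours the coefficient of variation of TPM was 31.9% for the sum, 60.1% for ENST00000675795 and 194% for ENST00000286301, and in OCA tumours it was 59.1%, 64.4% and 185%. The sum lay at 57.3 to 147 reads in vehicle tumours (median 111, n = 7) and 45.3 to 243 reads in OCA tumours (median 102, n = 6). The highest, 243 reads, was OCA replicate 1, and the lowest, 45.3 reads, was OCA replicate 6.

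The CSF1R sum was 2.61 ± 0.838 CPM in vehicle (SD, n = 7) and 2.49 ± 1.499 CPM in OCA tumours (SD, n = 6). This difference of -0.123 CPM was smaller than the SD of either group. By a two-sided exact permutation test of the group means it had p = 0.874. It was -0.705 CPM without OCA replicate 1 (exact permutation p = 0.124) and turned to 0.099 and 0.169 CPM without vehicle replicate 5 and OCA replicate 6. Within the lower label series OCA over vehicle was 1.503 by mean TPM, and within the upper series 0.531. The transcript ENST00000675795 alone had a log2 fold change of 0.08 (SE 0.76, 95% interval -1.56 to 1.73, edgeR adjusted p = 1), and this was 1.41 within the lower and -0.94 within the upper label series and 1.06 by limma-voom, so no direction can be given.

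**Figure D4:**
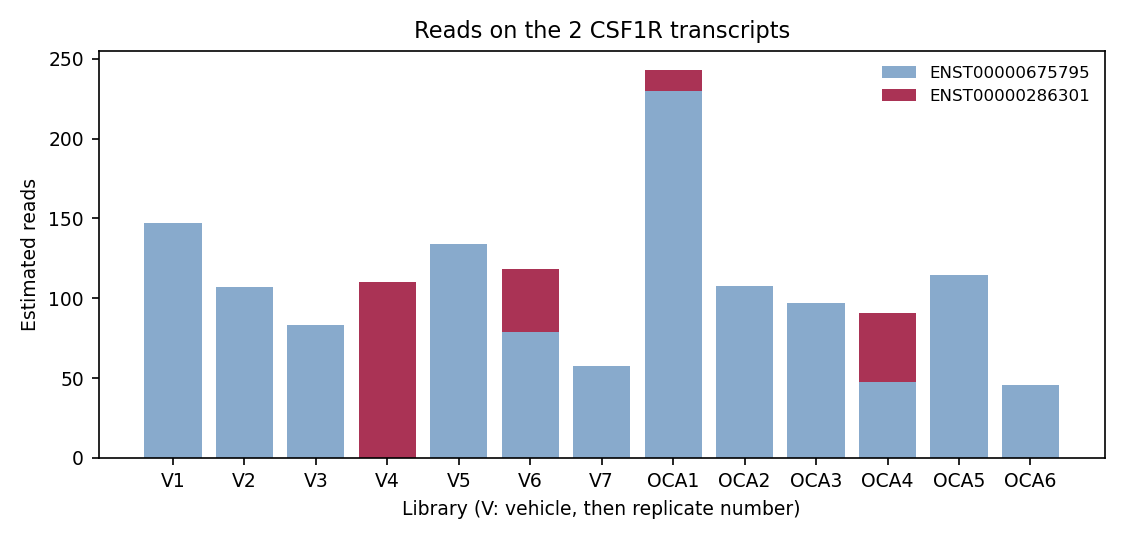
Estimated reads on the 2 CSF1R transcripts in each library, stacked so that the bar height is their sum (V1 to V7 vehicle, OCA1 to OCA6 OCA replicates). ENST00000286301 takes all reads in V4 and part of them in V6, OCA1 and OCA4, while the sums lie between 45.3 and 243 reads.

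Another library measure had different group means, with overlapping ranges (25.8% to 27.6% in vehicle, 27.1% to 29.2% in OCA). It was not tested and is given beside these results. Reads on long transcripts, of at least 4000 bases, were 28.0% ± 0.743 of an OCA library (SD, n = 6) and 26.6% ± 0.564 of a vehicle library (SD, n = 7). Of the tested markers, COL1A1, COL1A2, COL3A1, VWF and KDR are that long (5072 to 8830 bases). The first 4 had negative log2 fold changes while KDR was at 0.039. Of the shorter tested markers, LUM was at -0.77, SPARC at 0.69 and the CSF1R transcript ENST00000675795 at 0.08. The part of transcript length in these values was not tested.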

How the data were processed

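RNA from 13 tumours (RNA integrity number above 6) was sequenced with paired reads of 150 bases, per the labels' protocols. FastQC, STAR, Salmon and DESeq2 (no versions) and the human build GRCh38.p14 are named in the submitters' processing notes. The annotation, and whether mouse reads were removed, are not given in the sources used here. For each library the authors deposited Salmon's estimated counts and TPM by transcript, per the file headers. Marker symbols come from the list of IDs, since the files hold none, and members and lists were chosen with earlier results of these data known. Named transcripts are the 11 members and, for the highest matrix and the highest endothelial or leukocyte member, the transcript with the highest r.

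Estimated counts were rounded, filtered with filterByExpr (minimum count 10, total 15), scaled by TMM and tested with edgeR 4.0.16 (robust quasi-likelihood, two-sided, Benjamini-Hochberg over all tested transcripts, threshold 0.05), in R 4.3.3. A standard error is the size of the log2 fold change divided by the square root of F. CPM uses TMM-scaled library sizes. Correlations used 100000 permutations. The edgeR step was tested on simulated data, where it missed most of the smaller changes put in and part of the larger ones. A member that was not called is therefore not shown to be unchanged. Alternatives were DESeq2 1.42.0, limma 3.58.1 (voom, and log2(TPM + 0.1) or log2(TPM + 1)), other scalings and filters, the label series and leaving out libraries. Libraries were taken as separate animals because the protocols count mice.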

Additional observations from a re-analysis of the deposited data

Results flagged for a closer look

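A single tumour lay far from the rest of its group in 8 of 22 sets of TPM values by Dixon's test at the 95% level. Chance flags about 1 in 20 groups of normally distributed values without ties. That rate does not hold for DCN and ENST00000286301, where most values are 0, and whether it holds for the other sets was not tested. For DCN the flagged tumours were vehicle replicate 5 at 0.0253 TPM and OCA replicate 2 at 0.00336 TPM. Each was the only library of its group with any read, so that the gap is the whole range by construction. OCA replicate 4 was high for LUM (0.839 TPM), for SPARC (1.90 TPM) and for the CSF1R transcript ENST00000286301 (0.243 TPM). For SPARC its gap to the next library was 86.5% of the range of the OCA group. OCA replicate 1 was high for CSF1R, at 1.47 TPM for both transcripts together and 1.39 TPM for ENST00000675795. Vehicle replicate 4 was high for ENST00000286301, at 0.588 TPM, where all its CSF1R reads were assigned to that transcript. The sets are not independent, since they share libraries and, for CSF1R, reads.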

How the results depend on the processing

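No member was called in any of 23 alternatives, leave-one-out fits included. The count over all transcripts, 0 by edgeR, became 416 with DESeq2 run without the low-count filter, 1 without the 3 libraries apart on the first component (added after seeing the data, as were the fits within label series and groups) and 0 to 1 with each library left out; the cause was not tested. COL1A1, COL3A1, LUM and VWF kept a negative log2 fold change in every alternative that held them, from -1.60 to -0.0084. COL1A2 turned to 0.0042 without the 3 libraries, with a leave-one-out range of -0.32 to 0.012. KDR turned to -0.10 with the label series as a covariate and to -0.23 within the lower series (leave-one-out -0.18 to 0.27, below 0 without vehicle replicates 2, 3, 5 or 7 or OCA replicates 1, 4 or 5). ENST00000675795 turned to -0.066 without the 3 libraries and to -0.94 within the upper series, and rose to 1.41 within the lower series and 1.06 with limma-voom (leave-one-out -0.32 to 0.29, below 0 without vehicle replicates 4 or 7 or OCA replicate 1). SPARC had a leave-one-out range of -0.31 to 1.02, below 0 only without OCA replicate 4. The CSF1R sum ranged from -0.705 (without OCA replicate 1) to 0.169 CPM, above 0 without vehicle replicate 5 or OCA replicate 6. Summed marker TPM in OCA over vehicle was 0.857, 0.950 and 0.645 within the lower and upper series, and 0.786 to 0.974 with each library left out, the highest without OCA replicate 2. The r of COL1A1 with COL1A2 turned to -0.078 without the 2 farthest libraries, -0.13 without the 3 and -0.24 within vehicle tumours (leave-one-out -0.13 to 0.71, below 0 without OCA replicate 2). The r of COL1A1 with SPARC turned to 0.20 within OCA tumours (leave-one-out -0.34 to 0.057, above 0 without vehicle replicate 3). The r of COL1A1 with COL3A1 stayed between 0.81 and 0.99. No paired analysis was possible because replicate numbers were given in accession order. Low read counts kept DCN, PTPRC and ENST00000286301 out of the test.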
